A study of Mus musculus with 6 samples.

Results

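The EGF family and its receptors were followed by RNA sequencing through 5-azacytidine induction of a mouse cardiosphere-derived cell line. The genes were taken by name from the deposited count table, 10 of the 54532 genes listed. They comprise 6 ligands (Areg, Ereg, Hbegf, Tgfa, Btc and Nrg1) and 4 receptors (Egfr, Erbb2, Erbb3 and Erbb4).

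The cells (iECDCs, or iCDCs in the labels) derive from the heart ventricle of C57BL/6 mice and carry a lentiviral hTERT transgene, the catalytic subunit of human telomerase, which keeps them dividing; both groups carried it. Control iCDCs (n = 3) were at passage 30. Induced iCDCs (n = 3), of the same passage, had received 10 µM 5-azacytidine, an inhibitor of DNA methylation, for 3 days, and the labels then give 4 weeks in IMDM with 2% FBS. The methods name low-glucose DMEM and a shorter culture for that step, and neither source gives the medium or culture time of the sequenced control cells, so that drug, serum and time in culture cannot be told apart. All cells belong to one immortalized line grown from epicardial explants, and the methods speak of 2 biological replicates per condition where the labels and the table give 3 samples. How these samples were cultured is not described, so the p-values measure only the spread between these samples.

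EGF family ligands are made as membrane-anchored precursors that metalloproteases of the ADAM family cut free, and they bind ERBB receptor tyrosine kinases, which pair up and signal through the RAS-MAPK and PI3K pathways. Amphiregulin (Areg) and TGF-alpha (Tgfa) bind EGFR, HB-EGF (Hbegf), betacellulin (Btc) and epiregulin (Ereg) bind both EGFR and ERBB4, and neuregulin-1 (Nrg1) binds ERBB3 and ERBB4. ERBB2 binds no known ligand and serves as a partner for the others. In the heart, neuregulin-1 made by endothelial cells acts on ERBB2 and ERBB4 of cardiomyocytes and is needed for the trabeculae of the embryonic ventricle.

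Total counts were 19041133 to 19823369 reads per library, and levels are given as CPM (counts scaled to depth, with TMM factors between libraries). Where a library had 0 reads of a gene, 3 counts were taken as its upper limit, 0.15 to 0.159 CPM, which covers counting error only. Of 14246 genes with enough reads for testing, 64.8% differed between induced and control cells at an adjusted p under 0.05 (quasi-likelihood test of edgeR, adjusted by Benjamini-Hochberg over all of them), 32.6% higher and 32.2% lower in induced cells. Their median log2 fold change was -0.01. Mesenchymal markers of cardiosphere-derived cells (Thy1, Eng, Ly6a, Col3a1, Pdgfrb, Tbx18, Gata4) were all detected, 4 of them higher and 3 (Ly6a, Pdgfrb and Tbx18) lower in induced cells. Their summed level of 4279.3 to 4619.6 CPM in control and 6617.1 to 6830.8 CPM in induced libraries was mostly Col3a1. The 9 cardiomyocyte markers summed to 1.6 to 1.89 CPM in control and 2.71 to 3.58 CPM in induced libraries. Of them 1 had enough reads for a test (Tnni3), and it was not called, although its groups did not overlap. Ryr2, not tested, had 1 read in control and 29 in induced libraries, also without overlap. The groups overlapped for the remaining cardiomyocyte markers.

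Because the inducing drug acts on cytosine methylation at CpG sites, the 250 bases upstream of the RefSeq gene start (GRCm38.p6) are shown for 4 of the genes, with CpG sites in capitals and the strand of the gene read 5′ to 3′. Areg had reads in control libraries and Erbb4 in induced libraries exclusively, Btc lies near Areg and moved the other way, and Egfr was not called. Methylation itself was not measured.
Areg, chr5:91139349-91139598, plus strand: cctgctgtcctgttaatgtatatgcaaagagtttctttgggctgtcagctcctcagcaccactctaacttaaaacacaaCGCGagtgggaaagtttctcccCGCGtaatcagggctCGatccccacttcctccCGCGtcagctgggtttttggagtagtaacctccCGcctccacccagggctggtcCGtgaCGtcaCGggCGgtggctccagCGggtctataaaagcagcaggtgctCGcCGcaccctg
Btc, chr5:91402995-91403244, minus strand: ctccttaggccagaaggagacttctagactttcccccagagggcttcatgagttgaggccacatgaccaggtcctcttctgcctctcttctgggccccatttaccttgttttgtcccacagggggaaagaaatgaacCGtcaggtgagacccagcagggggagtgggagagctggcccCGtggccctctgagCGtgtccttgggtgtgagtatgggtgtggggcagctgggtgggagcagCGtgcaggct
Erbb4, chr1:69108060-69108309, minus strand: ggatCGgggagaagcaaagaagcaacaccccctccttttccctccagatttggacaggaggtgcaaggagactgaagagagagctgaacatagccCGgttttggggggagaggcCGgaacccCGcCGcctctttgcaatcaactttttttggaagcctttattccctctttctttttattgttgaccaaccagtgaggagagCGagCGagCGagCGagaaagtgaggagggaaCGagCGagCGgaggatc
Egfr, chr11:16751953-16752202, plus strand: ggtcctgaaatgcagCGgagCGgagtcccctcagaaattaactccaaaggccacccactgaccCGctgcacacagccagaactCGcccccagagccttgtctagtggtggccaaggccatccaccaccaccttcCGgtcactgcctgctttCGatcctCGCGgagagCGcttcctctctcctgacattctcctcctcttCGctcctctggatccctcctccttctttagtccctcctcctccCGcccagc

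Promoter sequences were matched for 6 of the 10 genes, and Ereg, Hbegf, Nrg1 and Erbb3 had no entry in the table used. Among the 32851 mouse promoter windows of the same length, the median CpG count was 6 (quartiles 2 and 16), and 92.1% held at least 1 CpG. The window of Tgfa held 19 CpG sites, more than 80.3% of all windows. Erbb2 followed with 16 (above 74.6% of windows), Areg with 15 (72.7%), Erbb4 with 12 (66.5%) and Egfr with 11 (64.4%), whereas Btc held 4 (37.8%). The windows of the lower genes Tgfa, Erbb2 and Areg thus held more CpG sites than those of the higher genes Erbb4 and Btc, which is a description of 6 windows with no test. The cyclic AMP response element motif TGACGTCA, which is its own reverse complement and contains a CpG, occurred in the Areg window alone, 61 bases before the start, and in 1.55% of all windows. The AP-1 motif TGANTCA, sought on both strands, was in none of the 6 windows and in 6.75% of all windows.

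To ask how the family changed on induction, the 8 members with enough reads were tested among all genes. Of these, 4 were higher and 3 lower in induced cells and 1 was not called, against 64.8% of all tested genes called. All 6 ligands differed in level without overlap between the groups, and so did 3 of the 4 receptors; of the tested members this holds for 7 of 8, against 68.6% of all tested genes. Since most genes of these cells differed, the counts describe the members and carry no statement on the family as a whole. The median log2 fold change of the tested members was 0.55, and it was 0.55 again with the untested Areg and Erbb4 set at the bounds given for them. That second value was fixed in advance, since Areg was added below the median and Erbb4 above it. For ligands alone the median went from 1.14 to 0.17 with Areg at its bound, and for receptors from -0.03 to 1.22 with Erbb4 at its bound, so the class medians depended on how the untested gene was treated.

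**Figure D1:**
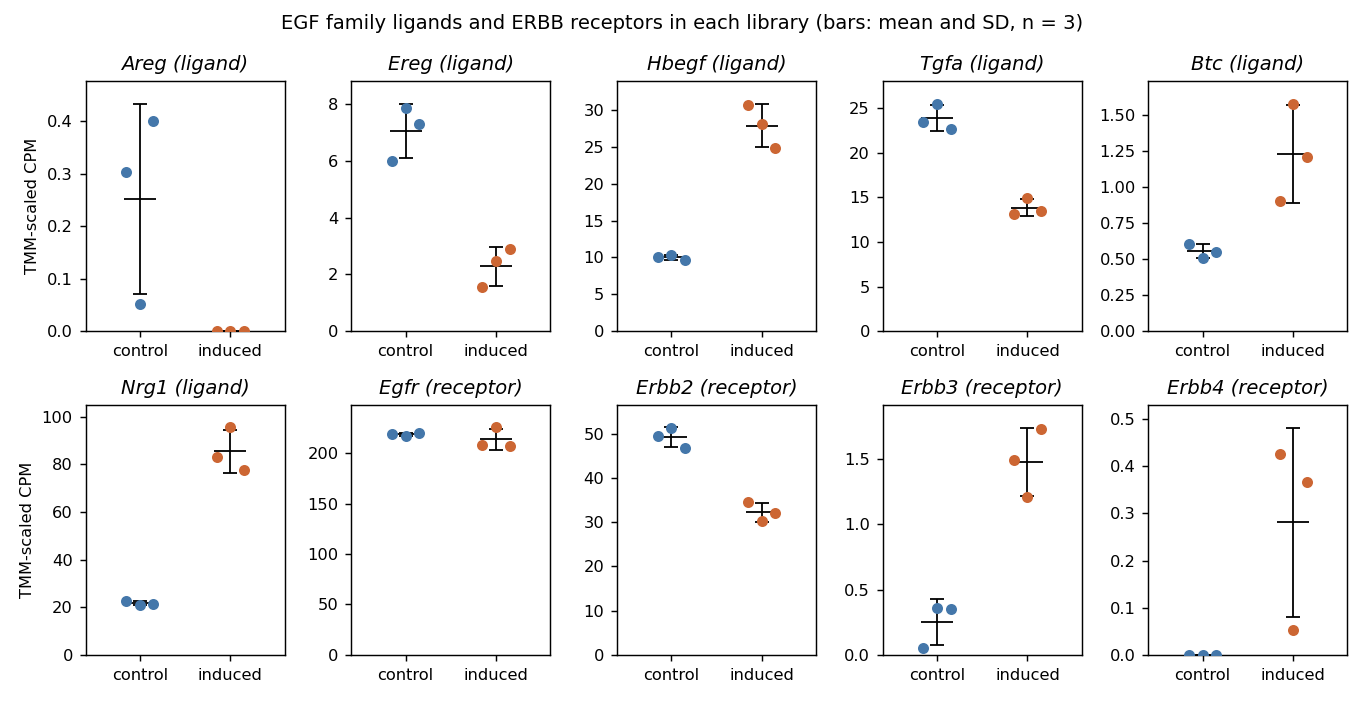
TMM-scaled CPM of each ligand and receptor in the 3 control (blue) and 3 induced (orange) libraries, each panel on its own linear axis from 0, with bars for the mean and SD. Nrg1, Hbegf, Btc, Erbb3 and Erbb4 are higher in every induced library, Tgfa, Ereg, Erbb2 and Areg are lower in every one, and the Egfr values overlap.

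Among the ligands, Nrg1, Hbegf and Btc rose and Tgfa and Ereg fell. Nrg1 (ENSMUSG00000062991, mm10 chr8:31814551-32884029, minus strand) showed the largest rise among the ligands. It was at 22.8, 21.1 and 21.3 CPM in control libraries and at 83.0, 95.5 and 77.8 CPM in induced libraries. The lowest induced library lay well above the highest control library, with 4861 reads in the induced group against 1289 in the control group. The mean level went from 21.7 ± 0.894 to 85.4 ± 9.07 CPM (SD, n = 3), a log2 fold change of 1.97 (SE 0.07, 95% interval 1.82 to 2.13) or 3.93-fold (edgeR quasi-likelihood, Benjamini-Hochberg adjusted p = 5.75e-14). Of the Nrg1 exon bases, 482 (4.66%) are shared with the antisense gene Gm26578, and since the strand setting of the counting is not given in the sources used here, reads in that stretch cannot be assigned to one of them. As in all bulk samples, more cells of a type and more RNA per cell cannot be told apart here.

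Hbegf (ENSMUSG00000024486, mm10 chr18:36504929-36515805, minus strand) encodes a heparin-binding ligand. It was at 10.1, 10.3 and 9.62 CPM in control libraries and at 30.7, 28.1 and 24.8 CPM in induced libraries. Control libraries hardly differed from each other, and each induced library had more than the highest of them. The mean rose from 10.0 ± 0.353 to 27.9 ± 2.92 CPM (SD, n = 3), by 1.48 on the log2 scale (SE 0.09, 95% interval 1.28 to 1.67) or 2.78-fold (edgeR quasi-likelihood, Benjamini-Hochberg adjusted p = 1.25e-10).

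Btc (ENSMUSG00000082361, mm10 chr5:91357261-91402994, minus strand) was near the limit of detection. It had 12, 10 and 11 reads in control libraries (0.608, 0.510 and 0.551 CPM) and 17, 30 and 23 reads in induced libraries (0.903, 1.58 and 1.21 CPM). The groups did not overlap, but induced replicate 1 lay nearer to the control libraries than to induced replicate 2. The mean went from 0.556 ± 0.0495 to 1.23 ± 0.338 CPM (SD, n = 3), a log2 fold change of 1.14 (SE 0.35, 95% interval 0.40 to 1.87; edgeR quasi-likelihood, Benjamini-Hochberg adjusted p = 0.00833). Without induced replicate 2 the log2 fold change was 0.92 and the call was lost (edgeR quasi-likelihood, Benjamini-Hochberg adjusted p = 0.0552, range over 11 alternatives 0.00611 to 0.0552).

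Tgfa (ENSMUSG00000029999, mm10 chr6:86195223-86275719, plus strand) encodes a ligand that binds EGFR alone among the receptors. Control libraries had 23.5, 25.5 and 22.7 CPM and induced libraries 13.1, 14.9 and 13.5 CPM. All 3 induced libraries lay below all control libraries, and the spread within each group was small against the gap. The mean fell from 23.9 ± 1.41 to 13.8 ± 0.953 CPM (SD, n = 3), with a log2 fold change of -0.79 (SE 0.09, 95% interval -0.97 to -0.61), 1.73-fold lower (edgeR quasi-likelihood, Benjamini-Hochberg adjusted p = 2.13e-07). The antisense gene Gm43917 shares 118 (1.82%) of its exon bases.

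Ereg (ENSMUSG00000029377, mm10 chr5:91074622-91093646, plus strand) had the deepest fall of the tested members. It had 5.98, 7.85 and 7.31 CPM in control libraries and 1.54, 2.47 and 2.88 CPM in induced libraries. All control libraries lay above all induced libraries. The mean went from 7.05 ± 0.962 to 2.30 ± 0.687 CPM (SD, n = 3), a log2 fold change of -1.61 (SE 0.20, 95% interval -2.03 to -1.19) or 3.06-fold lower (edgeR quasi-likelihood, Benjamini-Hochberg adjusted p = 1.1e-06). It shares 141 (3.42%) of its exon bases with the antisense gene Gm19610, described further on, which was lower in induced cells too.

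Areg (ENSMUSG00000029378, mm10 chr5:91139599-91148432, plus strand), whose promoter window is the one with the cyclic AMP response element motif, had 6, 1 and 8 reads in control libraries and 0 reads in every induced library. It had too few reads for the main test. Against 3 counts over the induced group (0.0527 CPM), the 15 control reads, taken as exact, give a level at least 4.8-fold lower in induced cells. Counting error of the 15 reads is not included in that limit. With no filter on low counts the difference was called (edgeR quasi-likelihood, Benjamini-Hochberg adjusted p = 0.00309). P-values of that fit cannot be set beside those of the main test. For Nrg1 it gave an adjusted p of 4.13e-187 against 5.75e-14, and for Btc 0.00915 against 0.00833 (edgeR quasi-likelihood, Benjamini-Hochberg).

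Of the receptors, Erbb2 fell, Erbb3 rose and Egfr was not called. Egfr (ENSMUSG00000020122, mm10 chr11:16752203-16918158, plus strand) had the highest level per length of the family. It had 219.2, 216.6 and 219.6 CPM in control libraries and 208.5, 225.4 and 207.0 CPM in induced libraries. Induced replicate 2 had the highest level of all libraries and the other two induced libraries the lowest, so the groups overlapped. The means were 218.4 ± 1.62 and 213.6 ± 10.2 CPM (SD, n = 3), and the log2 fold change of -0.03 had a 95% interval of -0.13 to 0.07 (edgeR quasi-likelihood, Benjamini-Hochberg adjusted p = 0.577). That interval bounds the change on the log2 scale, although it does not show that the levels were equal.

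Erbb2 (ENSMUSG00000062312, mm10 chr11:98412470-98437716, plus strand) fell. Control libraries had 49.4, 51.3 and 46.8 CPM, and induced libraries had 34.5, 30.3 and 32.0 CPM. The groups lay clearly apart. The mean went from 49.2 ± 2.22 to 32.3 ± 2.11 CPM (SD, n = 3), a log2 fold change of -0.61 (SE 0.06, 95% interval -0.74 to -0.47) or 1.52-fold lower (edgeR quasi-likelihood, Benjamini-Hochberg adjusted p = 1.39e-07). Only 9 of its exon bases are shared with the antisense gene Mien1.

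Both neuregulin receptors had few reads. Erbb3 (ENSMUSG00000018166, mm10 chr10:128567523-128589652, minus strand), whose own kinase is nearly inactive and which signals through its partners, had 1, 7 and 7 reads in control libraries and 28, 23 and 33 reads in induced libraries. It entered the test through its induced libraries alone. The mean went from 0.253 ± 0.175 to 1.48 ± 0.260 CPM (SD, n = 3), a log2 fold change of 2.52 (SE 0.44, 95% interval 1.59 to 3.44) or 5.72-fold (edgeR quasi-likelihood, Benjamini-Hochberg adjusted p = 6.67e-05). Leaving out each library in turn gave log2 fold changes between 2.05 and 2.83, all of them called.

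Erbb4 (ENSMUSG00000062209, mm10 chr1:68032186-69108059, minus strand), the neuregulin receptor of cardiomyocytes with its own active kinase, had 0 reads in every control library and 8, 1 and 7 reads in induced libraries. Like Areg it had too few reads for the main test. Its 16 induced reads, taken as exact, against 3 counts over the control group (0.0506 CPM) give a level at least 5.56-fold higher. Counting error of the 16 reads is not included in that limit. With no filter it was called (edgeR quasi-likelihood, Benjamini-Hochberg adjusted p = 0.00142), although induced replicate 2 held a single read. As for Areg, that p-value cannot be set beside those of the main test.

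**Figure D2:**
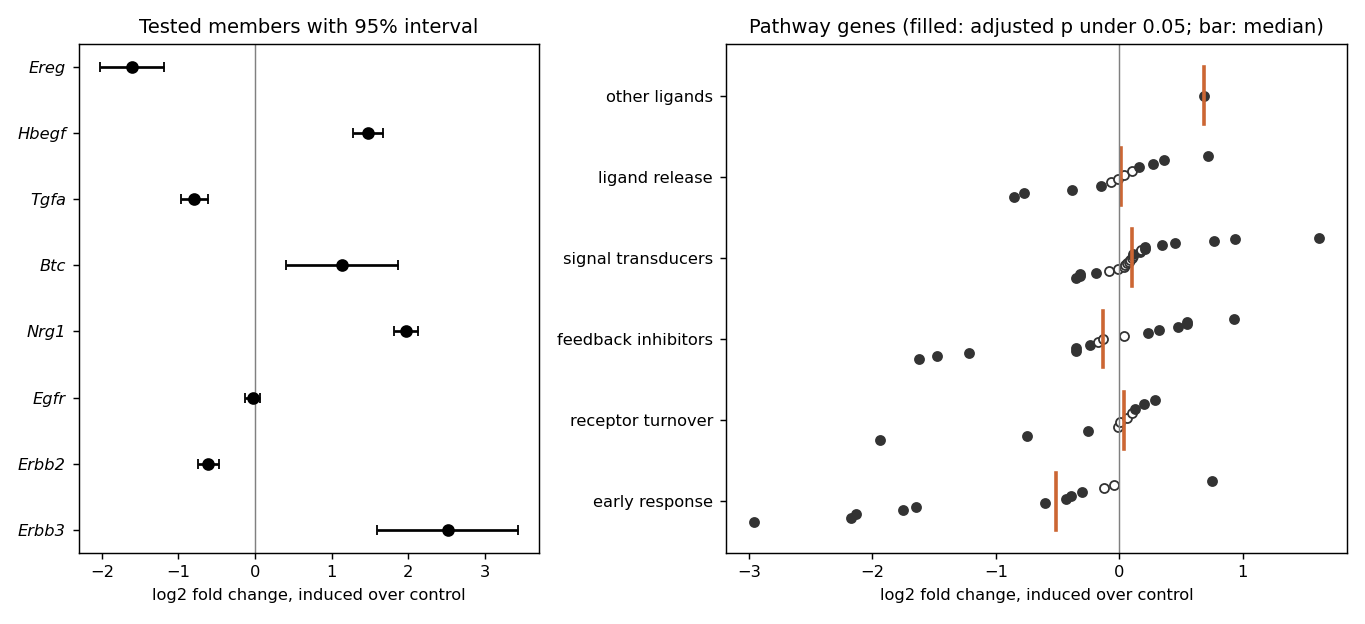
Log2 fold change of induced over control cells for the 8 tested members with 95% intervals (left) and for the tested genes of 6 pathway lists (right, one point per gene, filled where the adjusted p was under 0.05, orange bar for the list median). Members lie on both sides of 0 from -1.61 (Ereg) to 2.52 (Erbb3), and the early response list has its median at -0.52.

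To compare genes with each other, levels were divided by gene length (CPM per kilobase). In control cells the order was Egfr (19.3 CPM per kilobase), Erbb2 (9.44), Hbegf (4.22), Tgfa (3.68), Nrg1 (2.10), Ereg (1.71), Areg (0.207), Btc (0.123), Erbb3 (0.0420) and Erbb4 (0). The ranges of neighbours were separate except those of Areg and Btc. In induced cells Egfr (18.9 CPM per kilobase) was followed by Hbegf (11.7), Nrg1 (8.25), Erbb2 (6.19), Tgfa (2.13), Ereg (0.557), Btc (0.272), Erbb3 (0.245), Erbb4 (0.0228) and Areg (0), with overlap between Btc and Erbb3 alone. Nrg1 thus came to lie above Erbb2 and Tgfa. The place of Hbegf rests on its length, which is 2373 bases in the deposited table and 4834 bases in GENCODE M21. With the longer one it was at 2.07 CPM per kilobase in control and 5.76 in induced cells, where it lay below Nrg1, and its induced range of 5.14 to 6.34 overlapped that of Erbb2 (5.82 to 6.62). Egfr exceeded 80.7% of tested genes per kilobase in control cells and 80.0% in induced cells. Nrg1 went from above 31.1% to above 61.7% of tested genes, and Hbegf, with its deposited length, from 45.9% to 70.3%.

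The ligands summed to 11.9, 12.4 and 11.8 CPM per kilobase in control libraries and to 23.5, 24.3 and 21 in induced libraries, 1.91 times the control mean. The receptors summed to 28.8, 29.0 and 28.4 CPM per kilobase in control libraries and to 25.3, 25.9 and 24.7 in induced libraries, 0.880 times the control mean. The ligand sum divided by the receptor sum was accordingly 0.413, 0.426 and 0.416 in control libraries and 0.929, 0.938 and 0.850 in induced libraries. Ligand sums and ratios are given for the deposited length of Hbegf alone. With the longer length Hbegf was at 2.07 in place of 4.22 CPM per kilobase in control cells. In induced cells it was at 5.76 in place of 11.7, so both the ligand sums and the ratios would be lower. All levels here are of transcripts, and neither protein nor released ligand was measured.

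Within the ligand sum, the share of Hbegf went from 35% ± 0.796 to 51.1% ± 3.33 and that of Nrg1 from 17.4% ± 0.970 to 35.9% ± 1.95, while Tgfa went from 30.6% ± 1.1 to 9.29% ± 0.666 and Ereg from 14.2% ± 1.76 to 2.46% ± 0.867 (SD, n = 3). For Hbegf, the leading ligand, the difference of 16.1 percentage points gave p = 0.1 in a two-sided exact permutation test, the smallest p that 3 against 3 libraries allow. The order of the leading ligands depends on the same length. With the longer one, Tgfa led in control cells (37.2%, Hbegf 20.9%) and Nrg1 in induced cells (48.6%, Hbegf 34.0%). Among the receptors, the share of Egfr went from 67.1% ± 1.14 to 74.5% ± 2.08 and that of Erbb2 from 32.8% ± 1.15 to 24.5% ± 1.89 (SD, n = 3). The 7.41 points for Egfr again gave p = 0.1 in the exact permutation test. Erbb3 and Erbb4 stayed under 1% of the receptor sum on average, at 0.972% and 0.0908% in induced cells.

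**Figure D3:**
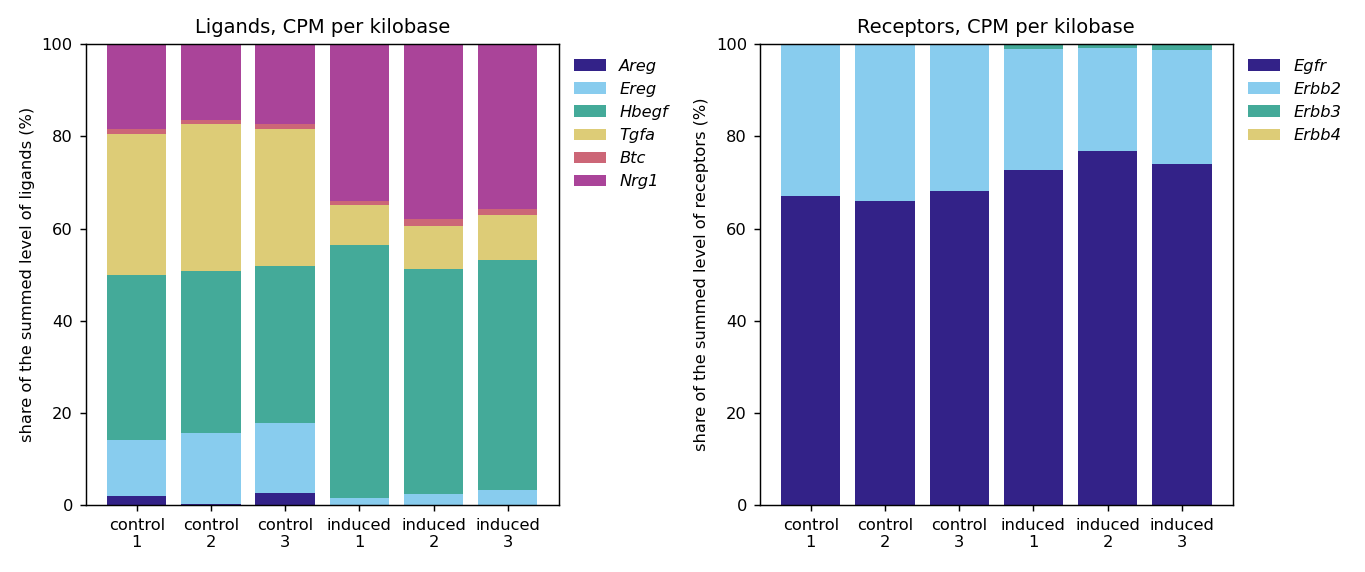
Share of each ligand in the summed level of the 6 ligands and of each receptor in that of the 4 receptors (%, from CPM per kilobase with the deposited lengths), one stacked bar per library. Hbegf and Nrg1 take larger parts and Tgfa and Ereg smaller parts in every induced library, and Egfr takes 65.9% to 68.2% in control against 72.7% to 76.8% in induced libraries.

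The other ligand genes of the family were at or near 0. Egf itself had 17, 19 and 18 reads in control libraries and 26, 30 and 28 in induced libraries, means of 0.910 ± 0.0539 and 1.48 ± 0.0984 CPM (SD, n = 3). Its log2 fold change was 0.69 (SE 0.29; edgeR quasi-likelihood, Benjamini-Hochberg adjusted p = 0.0419), a call that was lost under 10 of 12 alternatives, with adjusted p from 0.0296 to 0.109. Epgn had 2 reads in control and 0 in induced libraries, Nrg2 3 and 2, Nrg4 19 and 16, and Nrg3 none at all.

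Among 12 genes that release ligands from the membrane (ADAM proteases, Bace1, furin, and the iRhom proteins Rhbdf1 and Rhbdf2 with their partner Frmd8), 4 were higher, 4 lower and 4 not called (66.7% called, median log2 fold change 0.02). This and the lists that follow stand beside 64.8% called, 32.6% higher and 32.2% lower among all tested genes. Adam19, a protease that can cut neuregulin precursors, fell from 106.5 ± 2.65 to 59.2 ± 2.38 CPM (log2 fold change -0.85), and Adam12 fell from 34.4 ± 4.65 to 20.2 ± 1.73 CPM (-0.77). Rhbdf2, which escorts ADAM17 to the cell surface, rose from 12.5 ± 0.742 to 20.7 ± 1.33 CPM (0.72). Adjusted p-values of these 3 genes were 1.2e-10, 8.75e-07 and 1.24e-06 (edgeR quasi-likelihood, Benjamini-Hochberg). Bace1, which also cuts neuregulin precursors, rose from 60.1 ± 2.17 to 77.1 ± 5.43 CPM (0.36, adjusted p = 3.46e-05 by edgeR quasi-likelihood with Benjamini-Hochberg). Adam17, the main sheddase of Areg, Ereg, Hbegf and Tgfa, was not called (log2 fold change 0.04, 95% interval -0.08 to 0.16). Bace1 and Adam17 were chosen after their values were seen.

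Of 23 signal transducers downstream of the receptors, 9 were higher, 4 lower and 10 not called (56.5% called, median 0.10). The lead was taken by Pik3cb, a catalytic PI3K subunit, which rose from 12.9 ± 1.30 to 39.6 ± 2.19 CPM (log2 fold change 1.62). Braf, a RAF kinase, rose from 29.1 ± 3.38 to 55.7 ± 5.41 CPM (0.94), and Pik3r1, the PI3K regulatory subunit, from 75.4 ± 4.29 to 128.9 ± 13.3 CPM (0.77). Their adjusted p-values were 6.43e-12, 9.61e-09 and 1.13e-08 (edgeR quasi-likelihood, Benjamini-Hochberg).

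Feedback inhibitors of the pathway, 15 genes, split into 6 higher, 6 lower and 3 not called (80.0% called, median -0.13). Errfi1, whose product MIG6 binds and blocks the EGFR kinase, had 91.9, 88 and 88 CPM in control libraries and 27.4, 29.5 and 30.1 CPM in induced libraries. No induced library came near the control range. Its log2 fold change was -1.62 (SE 0.06), 3.08-fold lower (edgeR quasi-likelihood, Benjamini-Hochberg adjusted p = 2.4e-14). The phosphatase genes Dusp4 and Dusp5, whose products switch off MAP kinases in the nucleus, fell from 81.4 ± 2.39 to 34.8 ± 1.1 CPM (-1.22) and from 20.7 ± 0.537 to 7.45 ± 0.249 CPM (-1.48), with adjusted p of 7.61e-13 and 1.13e-10 (edgeR quasi-likelihood, Benjamini-Hochberg). The list had no single direction, since Spry1, Spry4 and Dusp6, named here after their values were seen, rose by 0.93, 0.55 and 0.55 on the log2 scale.

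Of 11 genes for receptor uptake and degradation, 10 were tested. Hgs was listed under the identifiers ENSMUSG00000116045 and ENSMUSG00000025793, each at 0 reads in every library. Whether the gene was silent or its reads were not assigned was not tested. Of the 10 tested, 3 were higher, 3 lower and 4 not called (60% called, median 0.04). Sh3kbp1, the CBL-binding adaptor CIN85, fell from 27.3 ± 2.72 to 7.10 ± 1.11 CPM (log2 fold change -1.94), the ubiquitin ligase gene Cblb fell from 39.4 ± 1.17 to 23.4 ± 2.02 CPM (-0.75), and the endocytic adaptor gene Eps15 rose from 41.8 ± 1.34 to 51.0 ± 3.01 CPM (0.29). Adjusted p-values were 2.73e-11, 4.05e-08 and 0.000348 (edgeR quasi-likelihood, Benjamini-Hochberg).

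Among 12 early response genes, which growth factor signalling is known to switch on, 1 was higher, 9 were lower and 2 were not called (83.3% called, median -0.52), against 64.8% called and 32.2% lower among all tested genes. Etv4, an ETS factor gene used as a readout of MAP kinase activity, fell from 18 ± 1.29 to 2.30 ± 0.372 CPM, with a log2 fold change of -2.96 (SE 0.14) or 7.81-fold lower. Fosl1, which encodes an AP-1 subunit, fell from 41.0 ± 3.2 to 9.10 ± 0.610 CPM (-2.17), and Myc fell from 87.4 ± 2.52 to 27.9 ± 1.34 CPM (-1.65). The adjusted p-values of these were 1.08e-12, 1.6e-13 and 2.17e-14 (edgeR quasi-likelihood, Benjamini-Hochberg). The exception was Fos, which went from 9.69 ± 1.01 to 16.3 ± 1.74 CPM (0.75 on the log2 scale, adjusted p = 8.87e-06 by edgeR quasi-likelihood with Benjamini-Hochberg). These genes answer many signals, and the activity of the receptors was not measured.

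Profiles over the 6 libraries were compared with those of the ligand and the receptor with the largest fold change. The measure was the root mean square distance of centred log2 CPM, with 0.5 CPM added before the logarithm. For Nrg1 the nearest of all tested genes were Pard3b (distance 0.057, log2 fold change 2.10), Pkia (0.067, 1.89) and Fzd4 (0.069, 1.97). Pkia encodes an inhibitor of protein kinase A and Fzd4 a Wnt receptor. For Erbb3 they were C1qtnf2 (0.1, 2.17), Entpd2 (0.123, 1.53) and Gbp11 (0.129, 2.68), of which C1qtnf2 and Gbp11 had means under 2 CPM in both groups. With 2 groups of libraries, such distances mostly compare the size of one difference, and they are a description. For Erbb3 the added 0.5 CPM exceeds its control mean of 0.253 CPM and shrinks that difference, so its neighbours depend on the added value.

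The family members on chromosome 5 lie next to each other and moved in opposite directions. Epgn, Ereg, Areg and Btc span 375.5 kb, with 46 kb between the end of Ereg and the start of Areg and 208.8 kb between the end of Areg and the start of Btc. Within that span the genes with at least 10 reads were Gm19610, Ereg, Areg and Btc. Gm19610, an antisense gene that overlaps the start of Ereg, had 13, 14 and 13 reads in control libraries and 2 in each induced library, a log2 fold change of -2.61 (SE 0.53; edgeR quasi-likelihood, Benjamini-Hochberg adjusted p = 0.000287). A wider window of 500 kb on either side of the Areg start was chosen after the values were seen. In it 10 genes were tested, 8 lower and 2 higher, against 32.2% lower and 32.6% higher among all tested genes. Among the lower genes, Cxcl5, Pf4, Cxcl15, Gm43085, Cxcl1 and Gm19610 passed the filter only through their control libraries. Their direction was therefore largely fixed in advance, and the count carries no statement on the window. All 8 lower genes lay on the Ereg side, where Cxcl5, Cxcl15 and Cxcl1, which encode neutrophil chemokines, had log2 fold changes of -8.09, -7.08 and -3.09, and Mthfd2l, the neighbour of Epgn, one of -1.21. The 2 higher genes lay on the Btc side, and the second of them, Parm1, had 44 ± 3.74 CPM in control libraries and 198.0 ± 10.7 CPM after induction (SD, n = 3; 2.17 on the log2 scale, edgeR quasi-likelihood with Benjamini-Hochberg adjusted p = 2.45e-15).

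**Figure D4:**
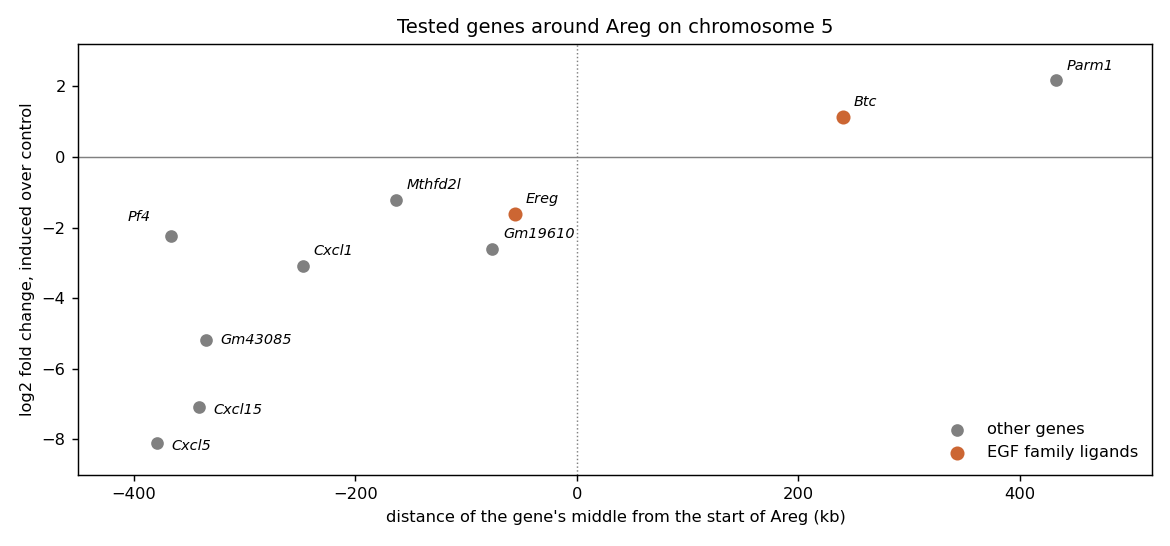
Log2 fold change of induced over control cells for the 10 tested genes around Areg on chromosome 5, against the distance of each gene's middle from the Areg start (kb), with family members in orange. The 8 genes left of Areg lie below 0, from -8.09 (Cxcl5) to -1.21 (Mthfd2l), and Btc (1.14) and Parm1 (2.17) on the right lie above 0.

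Since ligands and receptors of this family are also made by other cells of the heart, markers of those cells were read in the same libraries. The 6 endothelial markers summed to 0.255 to 0.557 CPM in control and 0.579 to 0.943 CPM in induced libraries, with Tie1 at 0 reads and none tested. Tek, with 7 reads in control and 32 in induced libraries, was the endothelial marker whose groups did not overlap. The 6 leukocyte markers summed to 0.051 to 0.203 CPM and 3.09 to 3.51 CPM. Fcer1g, with 2 reads in control and 187 in induced libraries, was the one tested and higher. It entered the test through its induced libraries alone. Laptm5 went the other way, with 7 reads in control and 0 in induced libraries, while Ptprc, Tyrobp, Itgam and Cd52 had 0 reads in all libraries. Of the Schwann cell markers, a lineage that depends on ERBB3, Sox10 and Foxd3 had 0 reads in all libraries. Cdh19 had 0 reads in control and 16 in induced libraries, and S100b, with 3 and 81 reads, was higher. Epithelial markers summed to 30.6 to 33.1 CPM in control and 49.2 to 64.7 CPM in induced libraries, with 5 of 8 tested. Krt18 (4 reads in control and 1022 in induced libraries), Krt8 (5 and 713), Krt14 (29 and 693) and Cdh1 (42 and 155) rose and Krt19 fell (1798 and 728), whereas Epcam, Krt5 and Esrp1 had at most 1 read in any library. Like Fcer1g, the genes S100b, Krt18 and Krt8 entered the test through their induced libraries alone, so their direction was largely fixed in advance. Krt14, with 9, 10 and 10 reads in control libraries, was there at the filter's minimum count of 10. S100b, Cdh19, Tek, Fcer1g, Laptm5 and the epithelial list moved in the same libraries as the members, and their part in the result was not tested.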

How the data were processed

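RNA from 3 control and 3 induced samples was sequenced (NEBNext Ultra RNA libraries). Per the labels the submitters' processing notes name HISAT2 2.0.5, featureCounts 1.5.0-p3, DESeq2 1.16.1 and mm10; the strand setting is not given in the sources used here. The authors deposited whole-number read counts per gene and library without normalization, and the deposited FPKM values were used only to check how they relate to the counts (count over gene length and over 1 depth per library). Deposited fold changes, p-values and Gene Ontology tables hold the authors' comparisons and were not used. Columns were matched to samples by their names.

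The counts were fitted with edgeR 4.0.16 under R 4.3.3 (TMM, filterByExpr with a minimum count of 10 and a minimum total of 15, two-sided quasi-likelihood test, Benjamini-Hochberg adjustment at 0.05, prior count 0.125). The filter left 14246 genes with 99.9% of the reads, and library totals of 19041133 to 19823369 limit the precision of genes with few reads. Standard errors were derived from each fold change and F value. Levels are mean ± SD of TMM-scaled CPM. Ligand and receptor shares used the gene lengths of the deposited table and an exact permutation test (scipy 1.17.1). Intervals cover counting error and the spread between these libraries only, and limits cover only the counting error of the libraries at 0 reads. The test was checked on simulated counts.

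Members, gene lists and tests were chosen with earlier results of these data known. Named genes are the 10 members, up to 3 genes with the smallest p from each of 6 pathway lists, the 3 nearest profiles of the ligand and the receptor with the largest tested change, list genes and genes with at least 10 reads between Epgn and Btc, and markers by list sums and at 0 reads; others are named as seen. Some Schwann cell markers and the sum of that list are not reported here. The alternatives comprised a replicate block, leaving out each library, DESeq2 1.42.0, size factors by median ratio, scaling by library totals alone, no filter on low counts, and a stricter one (a mean of 10 reads, with 1 CPM reached in 3 libraries). Lengths from GENCODE M21 were added after the data were seen.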

Additional observations from a re-analysis of the deposited data

How the results depend on the processing

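Fold changes of the 8 tested members kept their direction and their call in 94 of 95 values from the alternatives. The exception was Btc, at 0.92 without induced replicate 2 (range over left-out libraries 0.92 to 1.32), and Btc was not tested under the stricter filter. For the 16 pathway genes named for the smallest p in their lists, 182 of 192 values kept the call. Bace1, Adam17, Spry1, Spry4, Dusp6 and Fos, also named above, were not among these 16. The 10 lost calls were all of Egf, so that the count of other ligands called went from 1 to 0 with DESeq2, library totals alone, no filter and the replicate block, and was 0 to 0 over the left-out libraries. The share of Hbegf rose by 13.0 points with GENCODE M21 exon lengths, against 16.1 with the deposited length. Without a filter 9 members of 10 were called, Areg and Erbb4 being the added ones, in a fit whose p-values cannot be set beside those of the main test. None of the recomputed results changed sign.

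Replicate numbers did not pair the libraries, since deviations of same-numbered libraries correlated at -0.027, -0.027 and 0.032. With the replicate block 7 members were called as without it, and over all genes 9063 in place of 9225. Across the alternatives 8514 to 9765 genes were called. With scaling by library totals alone the median over all genes was -0.04 and 46.5% of calls were higher, against 50.3%, with member directions kept. Depth limits Areg, Erbb4, Erbb3 and Btc, which had 0 to 33 reads per library.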
